A study of Mus musculus with 24 samples.

Results

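Eggs arrested at metaphase II (MII) that lacked Cnot6l were compared with MII eggs labelled Btg4-/-, to see which maternal transcripts differed between the losses of 2 partners in mRNA deadenylation. Genes entered the comparison when their mean reached 1 FPKM (fragments per kilobase of transcript, relative to the fragments mapped) in either group, which kept 7956 of the 23235 genes listed and used 4 of the 24 libraries. Of these genes, 7629 qualified by their Cnot6l-/- mean, 6999 by their mean in the group labelled Btg4-/- and 6672 by both. Just inside the limit were 2900057B20Rik, at a mean of 1 FPKM in Cnot6l-/- and 0.325 in the other group, and Abl1, at 1 and 0.925. Just outside were Eif2ak3, at 0.995 and 0.480, and Emd, at 0.860 and 0.995.

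All mice were C57BL/6 at postnatal day 21, and groups labelled wild-type (WT), Cnot6l-/- and Btg4-/- were sampled at 4 stages with 2 libraries in each of the 12 groups. Germinal vesicle (GV) oocytes were collected 48 h after PMSG, metaphase I (MI) and MII oocytes were cultured for 8 and 16 h, and zygotes were taken from fertilized females 24 h after hCG. RNA came from 100 oocytes per library by the extraction protocol, whereas the description of the series mentions 2. The labels describe neither knockout allele, and they do not say whether the 2 libraries of a group came from separate animals, so each p-value reflects no more than the spread among these libraries, which may be technical.

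A fully grown oocyte is transcriptionally silent and lives on stored maternal mRNA. During meiotic maturation much of this mRNA is destroyed, and the first step is removal of the poly(A) tail by the CCR4-NOT complex. Cnot6l encodes a catalytic deadenylase subunit of that complex, and Btg4 encodes an adaptor that is translated during maturation and brings the complex to translated mRNA. mRNAs with a cytoplasmic polyadenylation element (CPE) in the 3′ UTR are instead polyadenylated and translated as meiosis resumes.

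Cnot6l transcript was at 7.26 and 3.40 FPKM in the 2 Cnot6l-/- libraries, against 44.7 and 15.4 in the libraries labelled Btg4-/- and 23.6 and 20.8 in WT. Its log2 difference between the 2 mutant groups was -2.18 ± 0.65 (limma, adjusted p = 0.0331; ± gives the SE throughout, with 2 libraries per group), and the libraries did not overlap. That call was lost when Cnot6l-/- replicate 1 or 2 or replicate 1 labelled Btg4-/- was left out (log2 differences of -2.63, -1.73 and -1.44, adjusted p = 0.0611, 0.202 and 0.274). Btg4 transcript was at 1431 and 1336 FPKM in Cnot6l-/-, 1494 and 1111 in eggs labelled Btg4-/- and 957 and 1114 in WT. The mutant libraries overlapped for Btg4 (log2 difference 0.10 ± 0.32, adjusted p = 0.934). The transcript level of Btg4 therefore gave no check of that label, and the group is called "labelled Btg4-/-" throughout.

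Summed FPKM were 199462 and 181023 in Cnot6l-/-, and 194890 and 140755 in the group labelled Btg4-/-. The ratio of the means was 1.13 (exact two-sided permutation p = 0.667, where the smallest value that 2 against 2 libraries allows is 0.333). Between 6488 and 7817 genes reached 1 FPKM per library, with the fewest in the second library labelled Btg4-/-. Across genes, log2 levels correlated at 0.955 between the Cnot6l-/- libraries, 0.961 between those labelled Btg4-/- and 0.907 to 0.942 between the groups. In pooled eggs, fewer cells of a type and less RNA per cell cannot be told apart.

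Differences at MII ran mostly toward higher levels without Cnot6l. A gene was called when its limma adjusted p was under 0.05, over all 10884 genes that reached 1 FPKM in any group of the series. Of these, 1199 (11.0%) were called higher and 193 (1.77%) lower in Cnot6l-/- than in the group labelled Btg4-/-. Among the 7956 genes compared, 1091 (13.7%) were higher and 176 (2.21%) lower, around a median log2 difference of 0.16. The difference was at least 1 on the log2(FPKM + 1) scale for 741 of the higher and 112 of the lower genes, and at least 2 for 113 and 23. The libraries of the groups did not overlap for 3580 tested genes in the higher direction (32.9%) and 1358 in the lower (12.5%).

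These counts rested on a spread estimated from all 24 libraries. With only the 4 libraries in the fit, limma called 0 genes higher and 1 lower (Snora33), while 2164 had an unadjusted p under 0.05. Whether the spread of all 24 libraries holds for the MII libraries was not tested, and the SEs and p-values given here depend on it. Leaving out Cnot6l-/- replicate 1 left 594 higher and 95 lower calls, leaving out Cnot6l-/- replicate 2 left 982 and 105, leaving out replicate 1 labelled Btg4-/- left 900 and 72, and leaving out replicate 2 labelled Btg4-/- left 570 and 155. After rescaling by median ratios the counts were 1365 higher and 419 lower, so higher genes were 76.5% of the calls in place of 86.1%. No call reversed direction in any of these fits.

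**Figure D1:**
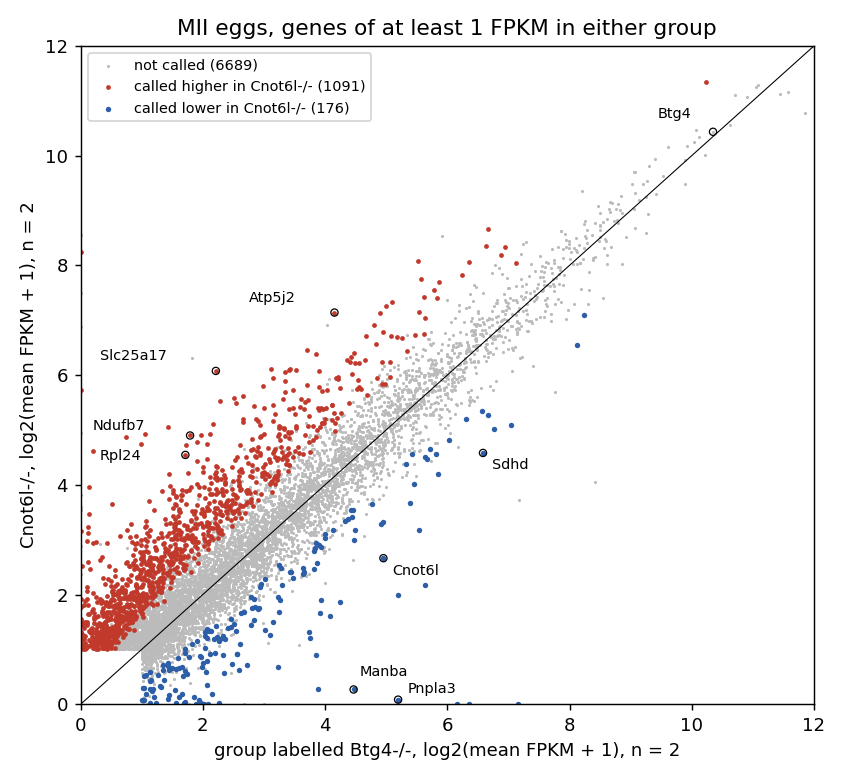
Each point is 1 of the 7956 genes, placed by log2(mean FPKM + 1) in the group labelled Btg4-/- (x axis) and in Cnot6l-/- (y axis), with 2 libraries per group. The 1091 red genes were called higher in Cnot6l-/- and the 176 blue genes lower, and Btg4 itself lies on the line of equal levels.

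Calls were made at every level of expression but were most frequent among low transcripts. Of the 2174 genes whose group means averaged under 2 FPKM, 18.0% were called higher and 2.85% lower. Among the 1121 genes between 20 and 100 FPKM the shares were 9.99% and 1.87%, and among the 319 genes at 100 FPKM or more they were 4.70% and 0.627%. The median log2 difference in these 3 classes was 0.21, 0.19 and 0.18.

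Cytosolic ribosomal proteins were the list with the most calls. Of 82 such genes, 39 were higher (47.6%) and 2 lower (2.44%) in Cnot6l-/-, beside 11.0% and 1.77% over all genes tested. The median log2 difference was 1.04 beside 0.13 over all genes tested. The large subunit had 23 higher and 0 lower of 49 genes (median 1.03), and the small subunit 16 higher and 2 lower of 33 (median 1.33). Rpl24, of the large subunit (chr16:55966388-55971550, plus strand, mm9), was at 18.5 and 26.2 FPKM in Cnot6l-/-, 3.0 and 1.56 in eggs labelled Btg4-/- and 2.05 and 1.27 in WT. Both Cnot6l-/- libraries thus stood far above the other 4, with a log2 difference of 2.85 ± 0.34 between the mutants (adjusted p = 3e-05). The list had a median level of 52.2 FPKM in Cnot6l-/-, 21.0 in the group labelled Btg4-/- and 4.36 in WT. Without Cnot6l-/- replicate 2, 26 of its genes were called higher.

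Before maturation the medians of the list were close in all genotypes. At GV the list's median was 335 FPKM in Cnot6l-/-, 361 in the group labelled Btg4-/- and 331 in WT, with a median log2 difference of -0.02 between the mutants and 0 genes called either way, against a background of 637 genes called higher (5.85%) and 1350 lower (12.4%). At MI the median difference was -0.52, again with 0 of the 82 called, where 391 genes were called higher over all genes (3.59%) and 703 lower (6.46%). In zygotes it was -0.76, with 5 of the list higher and 33 lower, where 186 of all genes were higher (1.71%) and 1393 lower (12.8%). Of the 39 higher at MII, 3 were also called higher in zygotes and 13 were called lower there. Rescaling every library by median ratios changed the split of all genes to 504 higher and 387 lower at GV, 461 and 281 at MI, and 718 and 1668 in zygotes, beside the 1365 and 419 it gave for MII eggs. Ribosomal protein genes have many processed pseudogenes, and the sources used here do not say how reads shared with such copies were assigned.

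**Figure D2:**
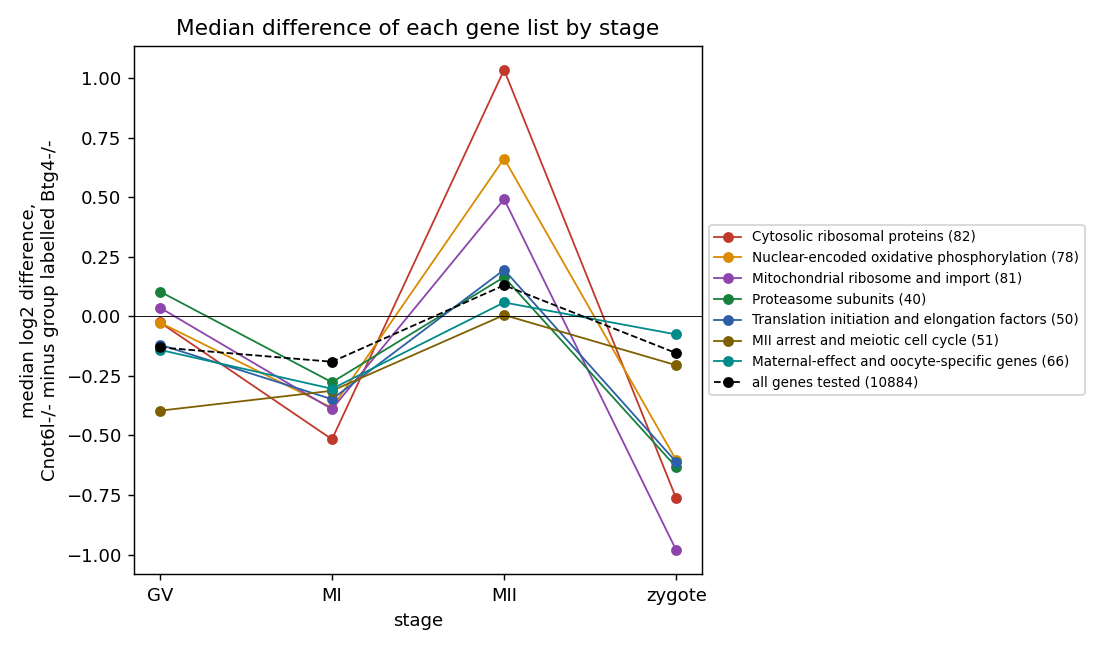
Median log2 difference (Cnot6l-/- minus the group labelled Btg4-/-, y axis) of 7 gene lists and of all 10884 genes tested at each stage (x axis), with the number of genes in brackets. Ribosomal proteins move from -0.02 at GV to 1.04 at MII and -0.76 in zygotes, while maternal-effect genes go from -0.14 to 0.06 and -0.08.

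The respiratory chain showed the same direction with marked exceptions inside it. Of 78 nuclear-encoded genes of oxidative phosphorylation, 23 were higher (29.5%) and 3 lower (3.85%), beside 11.0% and 1.77% over all genes tested. The median log2 difference was 0.66, and -0.03 at GV. Complex I contributed 14 higher and 0 lower of 37 genes, and ATP synthase 5 and 0 of 15. Ndufb7, an accessory subunit of complex I (chr8:86090657-86095522, plus strand), was at 29.1 and 28.5 FPKM in Cnot6l-/-, 2.39 and 2.53 in eggs labelled Btg4-/- and 0.67 and 0.72 in WT. The 3 genotypes were separate for Ndufb7, and the mutants differed by 3.11 ± 0.23 on the log2 scale (adjusted p = 1.8e-07). Atp5j2, a subunit of the membrane part of ATP synthase, was at 124 and 156 FPKM against 17.2 and 16.4 (2.98 ± 0.42, adjusted p = 0.00016). Without replicate 2 labelled Btg4-/-, 15 genes of this list were called higher.

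Sdhd, a membrane anchor of complex II (chr9:50404445-50411954, minus strand), went the other way. Btg4, the gene named in the label of the other group, lies close by at chr9:50924106-50927805. A part of this position in the Sdhd difference was not tested. It was at 26.6 and 19.3 FPKM in Cnot6l-/-, 108 and 82.4 in eggs labelled Btg4-/- and 0.67 and 0.58 in WT, so that the WT egg had nearly none and the group labelled Btg4-/- had the most. The log2 difference was -2.01 ± 0.33 (adjusted p = 0.00065). Cox17, a copper chaperone for complex IV, was at 114 and 156 FPKM against 285 and 317, with 3.86 and 4.61 in WT (-1.16 ± 0.34, adjusted p = 0.0325). The third lower gene, Uqcrfs1, the iron-sulfur subunit of complex III, was chosen after its values were seen and was at 9.74 and 6.26 FPKM against 17.7 and 15.4 (-0.99 ± 0.27, adjusted p = 0.0231). The Sdhd call stood without any 1 of the 4 libraries. The Cox17 call did not stand without Cnot6l-/- replicate 1 or replicate 1 or 2 labelled Btg4-/- (log2 differences of -0.94, -1.24 and -1.09, adjusted p = 0.259, 0.0910 and 0.175), nor did that of Uqcrfs1 without Cnot6l-/- replicate 2 or replicate 1 or 2 labelled Btg4-/- (-0.71, -0.89 and -1.08, adjusted p = 0.202, 0.123 and 0.0741).

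Genes of the mitochondrial ribosome and protein import gave 23 higher (28.4%) and 4 lower (4.94%) of 81, beside 11.0% and 1.77% over all genes tested. Their median log2 difference was 0.49. The large mitoribosomal subunit had 10 higher of 37 genes, the small subunit 10 of 25 and import 3 of 19. Mrpl46 was at 9.01 and 7.92 FPKM in Cnot6l-/- against 1.27 and 0.93 in the group labelled Btg4-/- (2.17 ± 0.29, adjusted p = 8.8e-05). Mrps24 was at 15.8 and 22.2 FPKM against 3.60 and 3.78 (2.07 ± 0.29, adjusted p = 0.00014). Mrpl9 was lower, at 25.3 and 19.7 FPKM against 60.6 and 50.4 (-1.27 ± 0.30, adjusted p = 0.0093), and so was Mrps28, at 29.5 and 42.0 FPKM against 78.5 and 77.7 (-1.13 ± 0.32, adjusted p = 0.0261). Tomm22, a receptor of the outer-membrane import pore, and Mrpl27 were the other lower genes, at log2 differences of -1.07 and -0.72, and both were named after their values were seen.

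The lower calls of this list numbered 2 and 1 without Cnot6l-/- replicate 1 and 2, and 0 and 1 without replicate 1 and 2 labelled Btg4-/-. The Mrpl9 call was lost without Cnot6l-/- replicate 2 or replicate 1 labelled Btg4-/- (-1.10 and -1.14, adjusted p = 0.0788 and 0.0747). The Mrpl27 call was lost without any 1 of the 4 libraries (adjusted p = 0.0752 to 0.252), and that of Tomm22 without Cnot6l-/- replicate 2 or replicate 1 or 2 labelled Btg4-/- (-0.81, -0.96 and -1.18, adjusted p = 0.183, 0.126 and 0.0725). That of Mrps28 was lost without Cnot6l-/- replicate 1 or replicate 1 or 2 labelled Btg4-/- (-0.88, -1.12 and -1.13, adjusted p = 0.248, 0.101 and 0.118). Higher calls in the list numbered 12 without Cnot6l-/- replicate 1 or without replicate 2 labelled Btg4-/-.

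Proteasome subunits, the parts of the protease that removes ubiquitinated proteins, gave 10 higher (25%) and 0 lower of 40 genes, beside 11.0% and 1.77% over all genes tested. However, the median log2 difference of 0.17 was close to that of all genes. Psmb5, which carries the chymotrypsin-like activity (chr14:55232957-55236832, minus strand), was at 43.7 and 44.3 FPKM in Cnot6l-/-, 4.02 and 5.61 in eggs labelled Btg4-/- and 2.11 and 1.30 in WT (2.96 ± 0.25, adjusted p = 9e-07). Psmb4 was at 31.6 and 33.7 FPKM against 8.49 and 8.45 (1.83 ± 0.30, adjusted p = 0.00065). Another core subunit, Psmb7, was not called, at 50.5 and 40.5 FPKM against 98.2 and 69.5 (-0.85 ± 0.41, adjusted p = 0.212). Without Cnot6l-/- replicate 1, or without replicate 2 labelled Btg4-/-, 4 proteasome genes were called and the list's median was -0.01 and -0.11. Without either of the other libraries, 6 were called.

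Translation factors gave 10 higher (20%) and 0 lower of 50 genes, beside 11.0% and 1.77% over all genes tested. Their median was 0.20, and fewer were called whichever 1 of the 4 libraries was left out. The median was then 0.12 and 0.47 without Cnot6l-/- replicate 1 and 2, and 0.53 and 0.05 without replicate 1 and 2 labelled Btg4-/-. The initiation factor eIF3 held opposite patterns among its subunits. Eif3h was at 12.4 and 12 FPKM in Cnot6l-/- against 1.78 and 2.44 (2.09 ± 0.26, adjusted p = 4.7e-05), and Eif3l at 11.7 and 6.40 against 1.46 and 0.72 (2.24 ± 0.26, adjusted p = 2.3e-05). Eif3m stood at 29.2 and 23.3 FPKM against 60.7 and 48.1, without overlap of the libraries but short of a call (-1.02 ± 0.38, adjusted p = 0.0928). Splicing factors gave 3 higher (7.14%) and 1 lower (2.38%) of 42 (median 0.01), so the share called higher was below that over all genes tested. The higher genes were the small nuclear ribonucleoprotein genes Snrpd2 (2.69) and Snrpb (2.1) and the SMN-complex gene Gemin7 (1.68), in log2 difference. Gemin7 was named after its value was seen.

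DNA replication and repair genes gave 7 higher (10.6%) and 1 lower (1.52%) of 66, near the 11.0% and 1.77% over all genes tested (median 0.10), and 4 higher without Cnot6l-/- replicate 1 or without replicate 1 labelled Btg4-/-. Gins4, of the replicative helicase complex, was at 13.4 and 9.39 FPKM against 1.90 and 1.97 (2.06 ± 0.26, adjusted p = 5.2e-05). Rpa2, which coats single-stranded DNA, was at 9.14 and 8.10 FPKM against 2.25 and 1.58 (1.73 ± 0.24, adjusted p = 0.00016). The lower gene was Mcm3, a subunit of the helicase ring, at 1.49 and 1.25 FPKM against 2.83 and 3.33 (-0.78 ± 0.23, adjusted p = 0.0344). Its call was lost without any 1 of the 4 libraries (adjusted p = 0.0758 to 0.203). Rpsa and Rps3, the 2 lower ribosomal protein genes, were at 10.5 and 10.7 against 22.5 and 18.5 FPKM (-0.88 ± 0.22, adjusted p = 0.0131) and at 6.63 and 6.80 against 16.0 and 10.9 FPKM (-0.88 ± 0.25, adjusted p = 0.0282). Both calls were lost without Cnot6l-/- replicate 1 or 2 or replicate 1 labelled Btg4-/- (adjusted p = 0.0812, 0.0530 and 0.105 for Rpsa, and 0.140, 0.0901 and 0.231 for Rps3). Rps3 was named after its values were seen, and Rpsa shares its locus with Snora62.

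**Figure D3:**
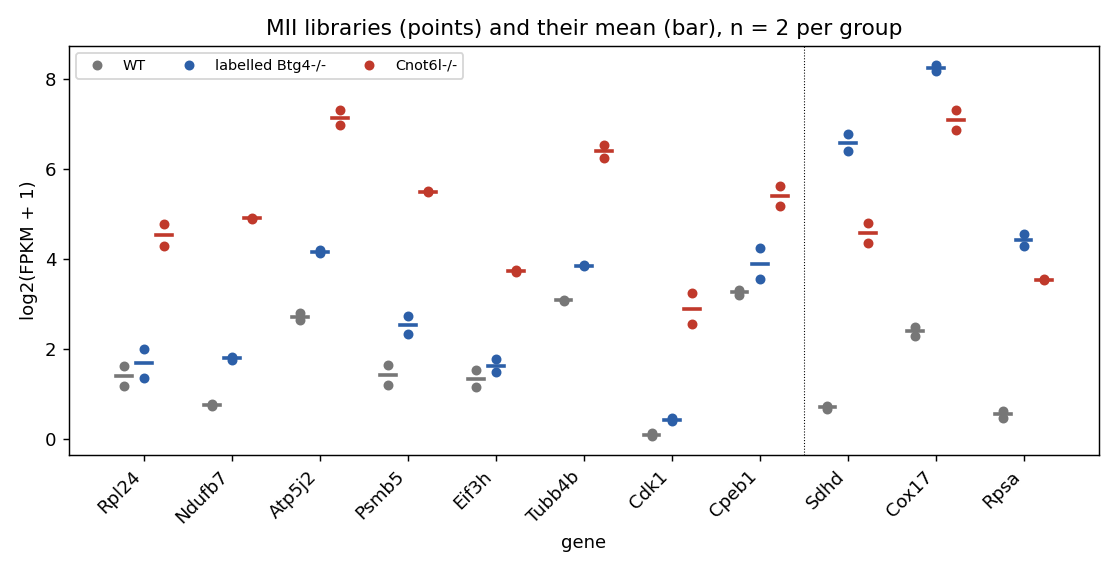
log2(FPKM + 1) of 11 genes (x axis) in each MII library, with points for libraries and bars for the mean of 2. Left of the dotted line Cnot6l-/- is highest. There the group labelled Btg4-/- lies near WT for Rpl24, at 3.0 and 1.56 FPKM beside 2.05 and 1.27. It lies above WT for Ndufb7, at 2.39 and 2.53 FPKM beside 0.67 and 0.72. Right of the line Sdhd, Cox17 and Rpsa are highest in the group labelled Btg4-/- and lowest in WT.

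The difference itself changed between GV and MII. A test of that change, limma's contrast of the MII difference minus the GV difference, called 672 genes higher (6.17%) and 54 lower (0.496%), with a median shift over all genes of 0.29. After rescaling by median ratios the calls were 202 higher and 28 lower with a median shift of 0.14, and with a pseudocount of 0.1 they were 359 and 5. Of the 1091 genes called higher at MII, 353 also passed this test, and of the 176 lower genes, 7 did. The test contains the same MII difference that chose these genes. Counts of genes called in both are therefore no separate support for the MII calls. Of 82 ribosomal protein genes, 25 were called higher in both, as were 16 of 78 genes of oxidative phosphorylation, 12 of 81 of the mitochondrial ribosome and import and 7 of 50 translation factors. For Ndufb7 and Rpl24 the change was 3.21 and 2.67 (adjusted p = 0.00014 and 0.00355), from GV differences of -0.10 and 0.18.

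Among the named genes that fell in this test, Sdhd changed by -2.1 (adjusted p = 0.0136) from a GV difference of 0.09. Dnajc7, a co-chaperone of Hsp70, changed by -1.32 (adjusted p = 0.038), and at MII it was at 7.08 and 6.84 FPKM in Cnot6l-/-, 21.9 and 20.4 in eggs labelled Btg4-/- and 1.58 and 2.39 in WT. In zygotes the Sdhd difference was -4.63 (adjusted p = 2.1e-07), as the Cnot6l-/- libraries were at 1.8 and 2.61 FPKM and those labelled Btg4-/- at 90.0 and 67.0. Cox17 behaved alike there, at 7.29 and 13.9 FPKM against 254 and 212 (-4.39, adjusted p = 3.4e-07).

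The count of genes that changed from GV was sensitive to single libraries. Without Cnot6l-/- GV replicate 1 it was 193 higher and 32 lower, without Cnot6l-/- GV replicate 2 it was 1070 higher and 66 lower, and without GV replicate 2 labelled Btg4-/- it was 1041 and 116. Leaving out 1 MII library at a time gave 330 to 376 higher and 18 to 41 lower, and leaving out GV replicate 1 labelled Btg4-/- gave 465 and 32. With only the 4 groups compared in the fit, 0 genes were called either way and 1508 had an unadjusted p under 0.05.

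Calls at the other stages were counted for the genes called at MII. Of the 1091 higher genes, 764 were called higher at no other stage, and their group as a whole had a median log2 difference of 1.21 at MII, 0.24 at GV, 0.01 at MI and -0.18 in zygotes. In all, 253 were also higher at GV (23.2%, beside 4.52% of the 7956 genes), 177 at MI (16.2%, beside 2.90%) and 129 in zygotes (11.8%, beside 2.16%), while 215 were called lower in zygotes (19.7%, beside 16.0%). Among the 7956 genes, 360, 231 and 172 were called higher at those stages, and the shared genes were 70.3%, 76.6% and 75% of these. Of the 176 lower genes, 8 were called lower at no other stage. There, 107 were also lower at GV (60.8%, beside 8.91%), 96 at MI (54.5%, beside 4.55%) and 132 in zygotes (75%, beside 16.0%). These were 15.1%, 26.5% and 10.3% of the 709, 362 and 1276 of the 7956 genes called lower at those stages. The median of the 176 genes was -1.13 at MII and -1.0, -0.97 and -1.20 at the other stages.

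At all 4 stages, 69 genes were called higher and 59 lower. Pnpla3, a lipid-droplet lipase (chr15:83998246-84019951, plus strand), was the lowest among genes of at least 10 FPKM that are not small RNA genes. It was at 0.07 and 0.05 FPKM in Cnot6l-/-, 44.8 and 26.5 in eggs labelled Btg4-/- and 21.4 and 13.6 in WT at MII (-5.06 ± 0.28, adjusted p = 5.3e-09), and its GV difference was -6.27. Manba, a lysosomal mannosidase, was at 0.21 and 0.20 FPKM against 24.7 and 17.5 (-4.18 ± 0.28, adjusted p = 7.6e-08), and Cdc5l, a splicing factor, at 0.31 and 0.11 against 15.2 and 12.3 (-3.60 ± 0.32, adjusted p = 1.9e-06). WT libraries were at 6.10 and 3.24 FPKM for Manba and 9.76 and 16.8 for Cdc5l. Cnot6l-/- was called below WT for all 3 genes, by -4.09 for Pnpla3, -2.19 for Manba and -3.52 for Cdc5l in log2 difference. The group labelled Btg4-/- was called above WT for Manba (1.99, adjusted p = 5.1e-05) and Pnpla3 (0.97, adjusted p = 0.0128) and was not called for Cdc5l (0.08, adjusted p = 0.911). Anxa5, a phospholipid-binding annexin, was at 3.22 and 2.75 FPKM against 42.3 and 29.0 with 2.42 and 1.58 in WT, so here the group labelled Btg4-/- stood apart (-3.18 ± 0.42, adjusted p = 0.000101).

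Other low genes with calls at all 4 stages were Fam54a (-3.35), Bcat2 (-2.49), Tmem87a (-2.47), Ccnb1ip1 (-2.39) and Ccdc109b (-2.34), in log2 difference at MII. Bcat2 transfers amino groups of branched-chain amino acids in mitochondria, Ccnb1ip1 acts in meiotic crossing over, and Ccdc109b is a subunit of the mitochondrial calcium channel. The loci of Bcat2 and Tmem87a overlap 0610005C13Rik and Ganc. Hormad1, a protein of the meiotic chromosome axis, was called at MII (-2.86) and GV (-2.49) but not at MI (0.22, adjusted p = 0.860) or in zygotes (-1.22, adjusted p = 0.134). The Fam54a call was lost without Cnot6l-/- replicate 2 or replicate 1 labelled Btg4-/- (adjusted p = 0.0540 and 0.0679). Among higher genes, Arid5b, a DNA-binding protein, was at 28.2 and 30.6 FPKM against 1 and 1.13 at MII (3.88 ± 0.57, adjusted p = 0.00022) and had a GV difference of 3.72. Inpp4a, a phosphoinositide phosphatase, was at 12.9 and 10.2 FPKM against 0.56 and 0.28 (3.14 ± 0.24, adjusted p = 3.1e-07) with 2.98 at GV.

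Position relative to the genes that the labels name was counted for these all-stage genes. Within 20 Mb of Cnot6l on chromosome 5 lay 0 of the 69 higher and 0 of the 59 lower genes, beside 139 of the 7956 (1.75%). Within 20 Mb of Btg4 on chromosome 9 lay 3 of the higher (4.35%) and 1 of the lower (1.69%), beside 165 of the 7956 (2.07%). Sdhd also lies within that distance of Btg4, but it was not called at GV or MI and so is not among the all-stage genes. The higher genes were spread over 20 chromosomes and the lower over 18, but some lay close together. Among the higher genes, Cdkn1b and Ddx47 start at chr6:134870419 and chr6:134961630, and Fut10 and 7420700N18Rik at chr8:32297804 and chr8:32478221. Among the lower genes, Gsto2 and Ccdc147 start at chr19:47940035 and chr19:48012202. These pairs were picked after their positions were seen, and clustering was not tested.

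**Figure D4:**
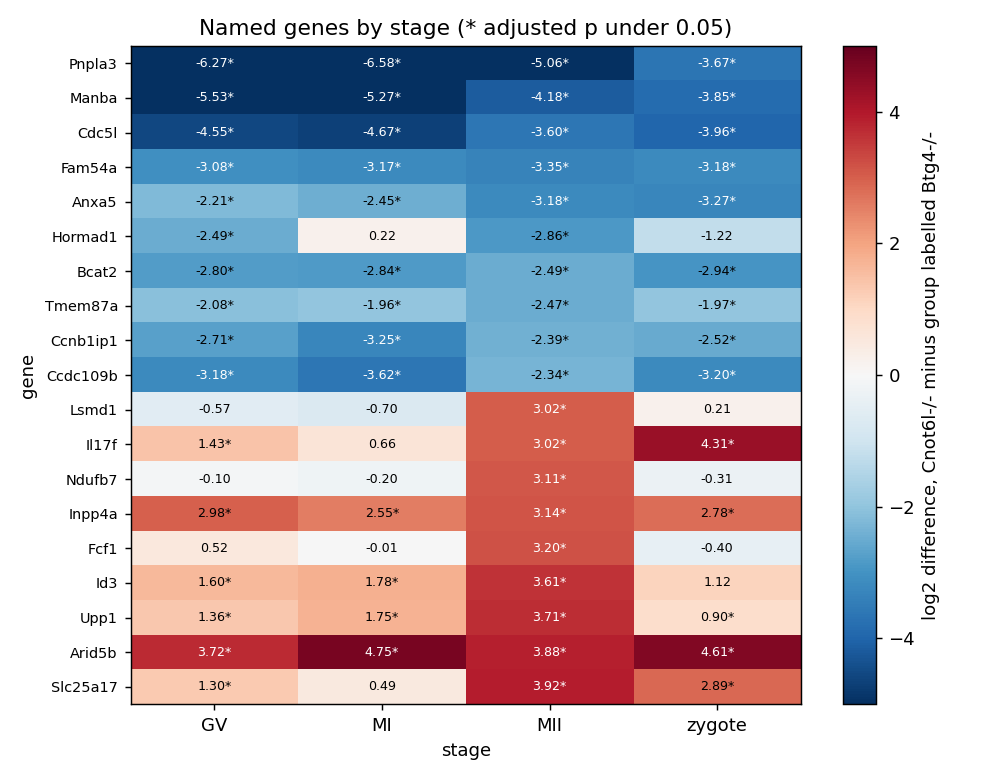
log2 difference (colour and number, Cnot6l-/- minus the group labelled Btg4-/-) of the named highest and lowest genes at MII (rows) at the 4 stages (columns), leaving out small RNA genes, with a star where the adjusted p was under 0.05. Pnpla3, Manba, Cdc5l, Arid5b and Inpp4a are called at every stage, whereas Ndufb7, Lsmd1 and Fcf1 are called at MII only.

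The largest increases were in genes of diverse function. Slc25a17, a peroxisomal membrane carrier (chr15:81149351-81191195, minus strand), was at 70.9 and 62.0 FPKM in Cnot6l-/-, 4.97 and 2.30 in eggs labelled Btg4-/- and 18.9 and 17.2 in WT, so the 2 mutants lay on either side of WT (3.92 ± 0.36, adjusted p = 2.1e-06). Upp1, uridine phosphorylase, was at 33.1 and 18.7 FPKM against 0.93 and 1.03 (3.71 ± 0.27, adjusted p = 1.7e-07). Id3, an inhibitor of helix-loop-helix factors, was at 25.4 and 39.3 FPKM against 2.07 and 1.33 (3.61 ± 0.42, adjusted p = 2.3e-05). These 3 genes were also called higher at GV, by 1.30, 1.36 and 1.60.

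Fcf1, needed for ribosomal RNA processing, was at 63.0 and 26.8 FPKM against 5.49 and 2.26 (3.20 ± 0.62, adjusted p = 0.0023) with no call at GV. Il17f, a cytokine gene, was at 84.6 and 51.4 FPKM against 10.3 and 5.06 (3.02 ± 0.34, adjusted p = 1.7e-05). Lsmd1, an auxiliary subunit of an N-terminal acetyltransferase whose locus overlaps Tmem88, differed by 3.02. Mir682 and Mir31 were listed at 0 in both libraries labelled Btg4-/-, and Snora33 and Snora2b at 0 in both Cnot6l-/- libraries. FPKM of such short genes rest on few fragments, the 2 snoRNA genes overlap Rps12 and 2310037I24Rik, and the calls of Mir31 and Mir682 were lost without Cnot6l-/- replicate 1 (adjusted p = 0.193 and 0.0867), that of Mir31 also without either library labelled Btg4-/- (0.0904 and 0.109).

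Of 19 CCR4-NOT subunits and other deadenylases tested, Cnot6l was lower and 1 gene was higher (5.26% each, beside 1.77% lower and 11.0% higher over all genes tested, and a median of 0.01). The higher gene was Pnldc1, which trims piRNA 3′ ends, at 3.53 and 2.55 FPKM against 0.52 and 0.45 (1.43 ± 0.22, adjusted p = 0.00031). Parn, a nuclear poly(A)-specific ribonuclease, was at 3.95 and 2.53 FPKM against 5.28 and 4.10 without a call (-0.44 ± 0.22, adjusted p = 0.257). Of 20 BTG/Tob adaptors and decay recruiters, 0 were higher and Btg2, a relative of Btg4, was lower, at 2.2 and 1.34 FPKM against 5.58 and 3.82 (-1.04 ± 0.25, adjusted p = 0.011). The Btg2 call was lost without Cnot6l-/- replicate 2 or replicate 1 labelled Btg4-/- (adjusted p = 0.107 and 0.111). Ythdf1, a reader of m6A in mRNA, was at 4.80 and 3.80 FPKM against 2.66 and 1.26, short of a call (0.88 ± 0.29, adjusted p = 0.0606).

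Among 32 poly(A)-binding and cytoplasmic polyadenylation genes, only Cpeb1 was called (median of the list -0.06). Cpeb1, whose protein binds the CPE, was at 47.6 and 34.9 FPKM in Cnot6l-/-, 17.8 and 10.7 in eggs labelled Btg4-/- and 8.86 and 8.18 in WT (1.5 ± 0.32, adjusted p = 0.0047). At GV its difference was -0.83, and the change from GV was 2.33 (adjusted p = 0.0061). The Cpeb1 call was lost without Cnot6l-/- replicate 1 or replicate 2 labelled Btg4-/- (1.28 and 1.16, adjusted p = 0.0695 and 0.0858). Decapping, exonuclease and exosome genes gave 4 higher and 0 lower of 37, where 10.8% higher was near the 11.0% over all genes tested. These were the exosome subunits Exosc5 (1.33) and Exosc4 (1.25), Wdr61 of the Ski complex (1.31) and Lsm6 (1.16), in log2 difference. Exosc4 and Lsm6 were named after their values were seen. Without replicate 2 labelled Btg4-/-, 2 of the list were called. Without Cnot6l-/- replicate 1 or replicate 2 labelled Btg4-/- the calls of Wdr61 (adjusted p = 0.293 and 0.471) and Lsm6 (0.259 and 0.375) were lost, and that of Lsm6 also without Cnot6l-/- replicate 2 (0.0964).

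Of 51 regulators of meiotic arrest and division, 6 were higher and 0 lower (median 0.01), so the 11.8% called higher was near the 11.0% over all genes tested. The higher calls fell to 2 without Cnot6l-/- replicate 1 and to 3 without either library labelled Btg4-/-. Cdk1, the catalytic subunit of maturation-promoting factor, was at 8.42 and 4.84 FPKM in Cnot6l-/-, 0.37 and 0.32 in eggs labelled Btg4-/- and 0.10 and 0.04 in WT (2.46 ± 0.40, adjusted p = 0.00054). Its GV means were 65.6, 43.0 and 65.6 FPKM, so 10.1%, 0.803% and 0.107% of the GV level was left at MII. Fzr1, an activator of the anaphase-promoting complex, was at 7.18 and 8.48 FPKM against 1.68 and 2.59 (1.51 ± 0.39, adjusted p = 0.0149), after a lower level at GV (-1.28, adjusted p = 0.0296). The Fzr1 call was lost without Cnot6l-/- replicate 1 or 2 or replicate 1 labelled Btg4-/- (adjusted p = 0.0625, 0.0830 and 0.110).

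The other 4 were Cdc25b (1.37), Bub3 (1.16), Wee1 (0.94) and Ensa (0.74), in log2 difference, named after their values were seen. Cdc25b, a phosphatase that activates Cdk1, kept its call without any 1 of the 4 libraries. Bub3, Wee1 and Ensa lost theirs without Cnot6l-/- replicate 1 (adjusted p = 0.283, 0.333 and 0.307), replicate 1 labelled Btg4-/- (0.0611, 0.0530 and 0.142) or replicate 2 labelled Btg4-/- (0.243, 0.170 and 0.119). Subunits of the anaphase-promoting complex gave 0 higher and 0 lower of 13. Spindle and microtubule genes gave 7 higher (15.6%) and 0 lower of 45, beside 11.0% and 1.77% over all genes tested. Their median log2 difference was 0.28, and fewer were called whichever 1 of the 4 libraries was left out. The median was then 0.19 and 0.42 without Cnot6l-/- replicate 1 and 2, and 0.50 and 0.10 without replicate 1 and 2 labelled Btg4-/-. Tubb4b, a beta-tubulin, was at 91.1 and 74.6 FPKM against 13.5 and 13.2 (2.54 ± 0.27, adjusted p = 1.1e-05), and its locus overlaps Fam166a. Haus8, of the augmin complex, was at 17.8 and 25.5 FPKM against 8.45 and 7.73 (1.30 ± 0.30, adjusted p = 0.0069), a call lost without Cnot6l-/- replicate 2 or replicate 2 labelled Btg4-/- (adjusted p = 0.0760 and 0.0579).

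Of 66 maternal-effect and oocyte-specific genes, 1 was higher and 1 lower (1.52% each, beside 11.0% higher and 1.77% lower over all genes tested, and a median of 0.06). Dnmt3l, a cofactor of de novo DNA methylation, was at 31.5 and 33.6 FPKM against 11.3 and 9.74 (1.54 ± 0.30, adjusted p = 0.0022). Oog1 was at 3.37 and 2.05 FPKM against 18.3 and 10.4 (-2.02 ± 0.37, adjusted p = 0.0014) and was also lower at the other 3 stages. Of 11 zona pellucida and egg-surface genes, Plat, tissue plasminogen activator, was higher at 348 and 234 FPKM against 122 and 110 (1.29 ± 0.41, adjusted p = 0.0451), a call lost without any 1 of the 4 libraries (adjusted p = 0.0569 to 0.323). Zp1, a zona protein, was at 291 and 205 FPKM against 135 and 92.2 without a call (1.12 ± 0.38, adjusted p = 0.0655). Among 7 genes of zygotic genome activation tested, Arg2 was higher at 55.0 and 27.7 FPKM against 9.10 and 4.98 (2.37 ± 0.56, adjusted p = 0.0085), a call lost without Cnot6l-/- replicate 1 or replicate 2 labelled Btg4-/- (1.89 and 1.99, adjusted p = 0.121 and 0.0997). Of 12 stress genes, Ddit3, a transcription factor of the stress response whose locus overlaps Mars, was higher at 7.91 and 7.56 FPKM against 1.37 and 0.88 (2.05 ± 0.25, adjusted p = 4e-05).

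Both mutants were compared with the same 2 WT libraries, so the values are given side by side. Cnot6l-/- had 4818 genes above WT (44.3%) and 73 below (0.671%), and the group labelled Btg4-/- 3075 above (28.3%) and 37 below (0.340%). Of the 1091 genes higher in Cnot6l-/- than in the group labelled Btg4-/-, Cnot6l-/- had 1073 above WT and the other mutant 413, with median log2 differences from WT of 1.79 and 0.52. Of the 176 lower genes, 56 were above and 34 below WT in Cnot6l-/-, and 139 above and 1 below in the group labelled Btg4-/-, with medians of 0.23 and 1.37. Both sets were called from the same mutant MII libraries, so the order of the 2 mutants in them was largely set by the choice. All 82 ribosomal protein genes were tested, and 76 and 61 were above WT in the 2 mutants.

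Levels at MII were also set against those at GV. Among the 7708 genes of at least 1 FPKM at GV in all 3 genotypes, a median of 45.4% of the GV level was left at MII in Cnot6l-/-, 38.4% in the group labelled Btg4-/- and 17.7% in WT. For the 1004 of them called higher the medians were 22.0%, 6.96% and 2.41%, and for the 138 called lower they were 27.9%, 44.3% and 8.92%. The calls rest on the same MII values, so the order of the mutants in these called genes was largely set by the choice. Ribosomal proteins kept 18.5%, 7.66% and 1.76%, and the maternal-effect list 59.2%, 43.8% and 31.1%. For Ndufb7 16.1%, 1.26% and 0.434% was left, and for Sdhd 12%, 52.7% and 0.344%. Because the sources used here do not give the scaling of FPKM between stages, these shares describe deposited values and not molecules per egg.

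The 3′ UTRs of the genes were described by their length and by the CPE. The longest annotated 3′ UTR of at least 50 bases was taken per gene from the mm9 annotation (7436 of the 7956 genes), and a CPE was counted where TTTTAT or TTTTAAT occurred on the transcribed strand. The median 3′ UTR was 582 bases for genes called higher, 832 for genes called lower and 1139 for genes not called. A CPE was present in 35.5% of the genes called higher, 65.2% of those lower and 67.2% of those not called, beside 60.1% of all genes tested. For genes called higher both at MII and in the change from GV, the median was 347 bases and 18.4% held a CPE. For 5 genes without and 4 with a CPE the sequence is shown, as the last 30 bases of 3′ UTRs without a CPE from genes called higher, and as the CPE nearest the end in genes not called. These genes were picked by hand as examples of each case, and both classes also hold genes of the other kind.

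The first set comes from genes called higher whose 3′ UTR holds no CPE, with the polyadenylation signal in capitals where these 30 bases hold one (AATAAA or ATTAAA, mm9), which those of Atp5j2 do not.
Ndufb7, chr8:86095496-86095525, plus strand: gaAATAAAagctttgggtcacctgcctaaa
Psmb5, chr14:55232957-55232986, minus strand: atggctatAATAAAtaatagtacctctttc
Fcf1, chr12:86324224-86324253, plus strand: ATTAAAcacattttctgatttttaaaaatg
Upp1, chr11:9036144-9036173, plus strand: tgggcAATAAAtctattttttcataacaca
Atp5j2, chr5:145945255-145945284, minus strand: cttccacctgagaggaagttacagtaatgt
The second set holds the CPE in capitals and comes from genes not called at MII, with log2 differences of 0.10 (Btg4), -0.06 (Dazl), 0.39 (Ythdf2) and 0.53 (Pan3).
Btg4, chr9:50927902-50927931, plus strand: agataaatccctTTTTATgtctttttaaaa
Dazl, chr17:50419077-50419106, minus strand: aagtcaaaattcTTTTATgtcaccaagtca
Ythdf2, chr4:131740911-131740940, minus strand: ctctgccaaactTTTTATtataaaatatat
Pan3, chr5:148360036-148360065, plus strand: atagcagtattTTTTAATaaagaattgcag
The Ndufb7, Psmb5 and Atp5j2 3′ UTRs are 61, 72 and 256 bases long, and that of Btg4 is 411 bases with 4 CPEs. From the CPE shown to the end of the annotated transcript there are 61 (Btg4), 370 (Dazl), 96 (Ythdf2) and 24 (Pan3) bases. That of Pan3 overlaps an AATAAA.

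Length and CPE were then considered in 1 grid, since long 3′ UTRs hold any short motif more often. Of genes without a CPE, 23.0% (634 of 2756) were called higher, and of genes with a CPE, 7.46% (349 of 4680). Shares called lower were 2.07% and 2.29%. In 3′ UTRs of at least 50 and under 200 bases, 30.1% of genes without and 8.51% with a CPE were called higher. From 200 bases the shares were 25.0% and 9.57%, from 500 bases 18.6% and 9.59%, from 1000 bases 18.1% and 7.59%, and from 2000 bases on 19.6% and 5.61%. The share without a CPE was the larger in all 5 length classes.

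Base composition moved with the same split. Median A+T content was 52.4% in genes called higher and 57.4% in genes not called. When genes were divided into 4 equal classes of A+T content, 28.7% without and 11.1% with a CPE were called higher in the lowest class, and 11.8% and 4.79% in the highest. The median log2 difference was 0.40 without and 0.14 with a CPE in the lowest class. In the highest class the medians were about equal, at 0.08 and 0.09. The motif TATTTT, which has the letters of a CPE in reverse order, can overlap one and is in 58.3% of all genes tested, gave 13.8% among genes with it and no CPE, 11.7% among genes with a CPE and no TATTTT, and 26.4% among genes with neither. On the same strand, the Pumilio motif TGTANATA was in 13.5% of genes called higher, 26.6% of those not called and 23.7% of all genes tested, and the AU-rich motif TATTTAT in 13.5%, 29.7% and 26.8%. The part of A+T content and length in the CPE difference was not tested, and these shares carry no test.

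**Figure D5:**
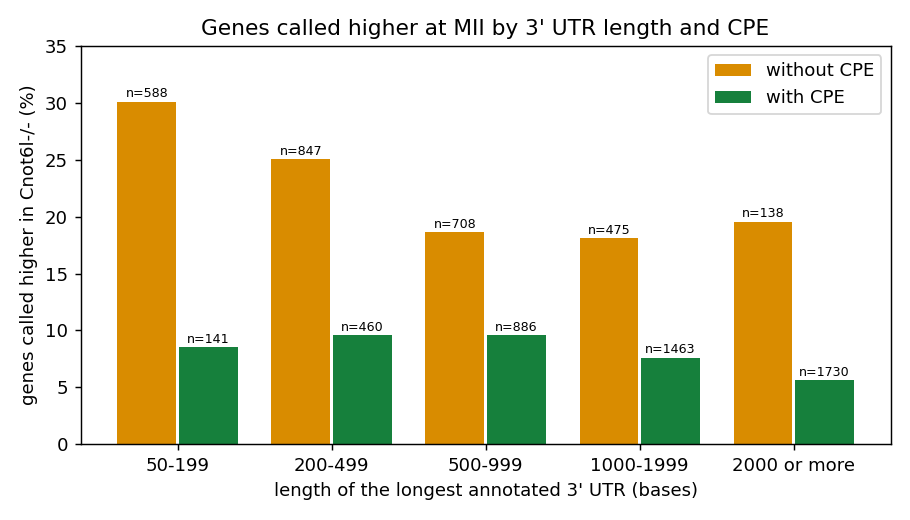
Percentage of genes called higher in Cnot6l-/- than in the group labelled Btg4-/- at MII (y axis) by length of the longest annotated 3′ UTR (x axis), for genes without (orange) and with (green) a CPE, with the number of genes above each bar. The share is higher without a CPE in every class, from 30.1% against 8.51% in the shortest to 19.6% against 5.61% in the longest.

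Marker lists were checked for cells other than the oocyte. Of 9 oocyte markers 0 were called (median 0.40), and Zp3, a zona protein, was at 779 and 887 FPKM against 529 and 541. Of 17 cumulus and granulosa markers 5 reached the test, and Cyp19a1, aromatase, was called higher at 11.3 and 6.66 FPKM against 4.20 and 2.21 (1.25 ± 0.28, adjusted p = 0.0059), a call lost without Cnot6l-/- replicate 1 or replicate 2 labelled Btg4-/- (adjusted p = 0.111 for both). The summed level of that list was 13.8 and 8.52 FPKM against 6.22 and 3.69, with Foxl2, Ptx3 and Tnfaip6 at 0 in all 4 libraries. Cyp19a1 made up most of that sum in each library, and it was also called higher at GV and in zygotes. Of 10 sperm markers 5 were tested, and Ldhc was higher at 14.6 and 11.4 FPKM against 4.26 and 1.43 (1.96 ± 0.35, adjusted p = 0.0013), while Tnp1 and Smcp were at 0 in all 4. Sperm markers summed to 25.3 and 26.1 FPKM against 14.5 and 11.7. Ldhc was a large part of that sum in Cnot6l-/-, and it was also called higher at GV. Of 8 blood and immune markers 3 were tested and 0 called, with Hba-a1, Hbb-b1 and Coro1a at 0 in all 4.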

How the data were processed

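Libraries were made with Smart-Seq2 and Tn5, per the labels' protocols. The authors deposited FPKM with 2 decimals. The submitters' processing notes name CASAVA 1.8, TopHat2 2.0.11, Bowtie2 2.1.0, Cufflinks 2.2.1 and mm9. No source used here gives the scaling between libraries or the read depth, so the spread between libraries is the only measure of precision. MI columns carry other numbers than the sample titles and were assigned to groups only.

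log2(FPKM + 1) was fitted with limma 3.58.1 (R 4.3.3, trend) to all 24 libraries, with 12 group means and 12 residual degrees of freedom. Two-sided p-values were adjusted by Benjamini-Hochberg over 10884 genes that reached 1 FPKM in any group's mean. The pseudocount of 1 understates differences of low genes. Members and the 22 gene lists were chosen with earlier results of these data known. Named genes were Cnot6l, Btg4, the 12 highest and 12 lowest called genes of at least 10 FPKM without overlap of libraries, the 2 highest and 2 lowest of each list, and up to 3 per direction that also changed from GV. Predicted loci were passed over, and not all named genes are printed (1 of the highest is not reported here). 3′ UTRs and sequences came from GENCODE vM1 on mm9, where 10567 of 10589 matched genes (99.8%) overlapped the deposited gene span on the same strand. That overlap can be partial and does not check 3′ ends. The deposited Btg4 span ends at chr9:50927805, before the CPE window shown for it. Alternatives covered pseudocount, filter, scaling, libraries in the fit, replicate block and leaving out each library.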

Additional observations from a re-analysis of the deposited data

Results flagged for a closer look

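The difference between Cnot6l-/- and the group labelled Btg4-/- was not the same at GV and MII for 672 genes that moved higher and 54 that moved lower, by limma's test of the change itself. Among named genes of the gene-expression lists, the change on the log2(FPKM + 1) scale was 3.21 for Ndufb7, 3.18 for Atp5j2, 2.67 for Rpl24, 2.79 for Psmb5, 1.87 for Psmb4, 2.24 for Mrpl46, 2.05 for Mrps24, 2.22 for Eif3h and 1.91 for Eif3l. It was 2.81 for Snrpd2, 1.73 for Snrpb and 1.46 for Gemin7 among splicing genes, and 1.75 for Gins4 and 1.53 for Rpa2 among replication genes. Regulators of the cell cycle and spindle gave 2.79 for Fzr1, 2.16 for Cdc25b, 1.46 for Wee1 and 2.37 for Tubb4b. Genes of RNA turnover and polyadenylation gave 2.33 for Cpeb1, 1.48 for Exosc5, 1.32 for Exosc4 and 1.08 for Pnldc1. Other named genes gave 3.59 for Lsmd1, 2.62 for Slc25a17, 2.46 for Ddit3, 2.35 for Upp1 and 2.01 for Id3. Mir682, a gene of 96 bases, gave 11.64, but its replicates differed widely. It was listed at 553 and 51.0 FPKM in Cnot6l-/- and at 0 in the group labelled Btg4-/- at MII. At GV it was at 0 and 154 FPKM in Cnot6l-/- and 63.95 and 836 in the group labelled Btg4-/-. The change was -2.10 for Sdhd, -1.32 for Dnajc7, -1.69 for Tomm22 and -5.93 for Snora2b.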

How the results depend on the processing

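Of 81 named genes under 11 alternatives (891 values), 708 kept their direction and their side of the threshold, 175 kept direction but lost the call, 3 gained one and 5 changed sign, none of these a called gene. Btg4 gave -0.000859 after median-ratio scaling. Without 1 library at a time, Btg4 ranged from -0.11 to 0.32, Ythdf2 from -0.27 to 1.05 and Dazl from -1.06 to 0.94. The cause of these shifts was not tested.

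Counts of calls (higher and lower) moved more. Without 1 library at a time they ranged from 570 to 982 and 72 to 155 at MII, 338 to 707 and 329 to 1575 at GV, 224 to 257 and 335 to 406 at MI, 87 to 177 and 543 to 1444 in zygotes, and 193 to 1070 and 18 to 116 for the change from GV. With only the libraries of the groups compared in the fit, MII gave 0 and 1, GV 96 and 88, MI 877 and 2972, zygotes 920 lower, and the change 0 and 0 (limma). Such a fit has fewer degrees of freedom and takes its spread from those libraries alone. Calls thus fell at MII but rose at MI, from 391 and 703 with all libraries in the fit. Median-ratio scaling gave 419 lower at MII, 387 lower at GV, 281 lower at MI, 718 higher in zygotes, and 202 and 28 for the change. A pseudocount of 0.1 gave 246 and 411 at GV, 206 and 364 at MI, 307 higher in zygotes, and 359 and 5 for the change. Testing only the 7956 genes gave 299 and 535 at GV, 203 and 306 at MI, and 402 and 19 for the change. No filter on low values gave 642 and 1114 at MI and 110 lower for the change.

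Replicate numbers were shared between groups, but the labels do not say that they pair samples, and deviations of same-numbered libraries correlated at 0.689 at MII, -0.162 at GV and 0.398 in zygotes. With the replicate block and without the MI libraries, which have no usable numbers, MII gave 1111 higher and 191 lower, and the change 511 and 41. The same libraries without the replicate block gave 123 lower at MII, 111 higher in zygotes, and 374 and 31 for the change.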

Other observations

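Sdhd, Cox17, Eif3m, Psmb7 and Rpl18 differed little between the 2 mutants at GV and widely in zygotes. Their GV differences were 0.09, -0.11, 0.28, -0.03 and -0.36 on the log2(FPKM + 1) scale, with no call, and their MII differences -2.01, -1.16, -1.02, -0.85 and -1.06, of which only those of Sdhd and Cox17 were called. In zygotes the differences were -4.63, -4.39, -4.17, -4.60 and -3.04 (limma, adjusted p = 2.1e-07, 3.4e-07, 1.8e-06, 1.3e-06 and 0.000103). Ndufb7, Eif3h, Psmb5 and Rpl24, other members of the respiratory chain, eIF3, the proteasome and the ribosome, differed by 3.11, 2.09, 2.96 and 2.85 at MII and by -0.31, -0.30, -0.02 and 0.41 in zygotes, where they were not called. These genes were set side by side after their values were seen.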
